A study of Mus musculus with 12 samples.

Results

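The transcripts of 10 genes that mark eosinophils, basophils and mast cells were followed in CD115-positive monocyte fractions of mouse spleen and blood. The genes were Ccr3, Siglecf, Prg2, Epx, Il5ra, Mcpt8, Cpa3, Fcer1a, Ms4a2 and Gata2. They were picked by symbol from 52553 gene features, and each had an entry in the count tables of all 12 libraries. The donors were male C57BL/6 mice, and cells of 5 mice were pooled for each library. The 4 groups of 3 libraries were spleen and blood of intact animals, and spleen and blood of animals killed 24 h after a 70% resection of the liver, which had kept their spleen. All cells had passed through a Ficoll gradient, which removes most neutrophils and eosinophils but leaves basophils with the mononuclear cells, and through anti-CD115 magnetic beads. CD115 is the receptor for macrophage colony-stimulating factor. The spleens had also been disaggregated mechanically and with collagenase, and their red cells had been lysed. The methods describe flow cytometry of the sorted spleen fraction, but its cell composition was not analysed here.

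Eosinophils and basophils are rare granulocytes of type 2 immunity. An eosinophil matures under interleukin-5, which acts through the receptor chain encoded by Il5ra. It is drawn into tissue by eotaxins that bind the chemokine receptor CCR3, carries the inhibitory lectin Siglec-F, and stores major basic protein (Prg2) and eosinophil peroxidase (Epx) in its granules. Basophils and mast cells bind IgE through a receptor whose alpha and beta chains are encoded by Fcer1a and Ms4a2, and they store proteases, among them the basophil protease Mcpt8 and carboxypeptidase A3 (Cpa3). GATA2 is a transcription factor of this lineage and of early blood progenitors. Granule protein messages are made mostly while a granulocyte matures, and several of these genes are also used by other cells, Siglecf by alveolar macrophages and Il5ra by B-1 cells.

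The libraries held 36990033 to 46401368 estimated counts each. Haemoglobin genes took 0.0814% to 3.47% of the counts in spleen and 13.2% to 34.2% in blood. Levels are given as CPM, counts scaled to library size, after TMM scaling, and 3 counts corresponded to 0.0626 to 0.102 CPM, so the lowest genes below rest on a few counts per library. Csf1r, the gene for CD115, was read in every library at 209 to 1191 CPM. Neutrophil genes (8 listed) summed to 770 to 1731 CPM in intact spleen, 4644 to 13983 in resected spleen, 90.6 to 313 in intact blood and 3409 to 18698 in resected blood. The third intact blood library had the lowest Csf1r of the 12. In such bulk samples fewer cells of a type and less RNA per cell cannot be told apart, and nothing in the labels says that the pools of a group were processed separately, so the p-values measure the spread between these libraries.

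In intact animals the spleen fraction held more Ccr3 and Prg2 message than the blood fraction. After resection Ccr3 alone of the 10 genes passed the test between the tissues. Blood against spleen, 2 of the 10 genes were called lower in intact animals (edgeR quasi-likelihood test, Benjamini-Hochberg adjusted p under 0.05 and a log2 change above 1 in size) and 1 in resected animals. Of all 20135 features tested, 7.35% were called in intact animals and 13.2% in resected animals, and 3.49% and 6.87% were called lower. None of the 10 genes was called after resection, in blood or in spleen, where 13.9% (7.8% higher and 6.11% lower) and 1.38% of all features were called. At an unadjusted edgeR p under 0.05, 3 of the 10 differed with resection in blood (2 higher and 1 lower) and 0 in spleen. The share of all features at that unadjusted threshold was not computed for any comparison, so this count is no result about these genes. DESeq2 called 2 in blood (18.4% of all features) and 0 in spleen (7.77%). It called 3 between the tissues of intact animals (12.8%) and 2 between those of resected animals (18%). The median log2 change of the 10 genes with resection was -0.91 in blood and -0.03 in spleen, against -0.10 and 0.05 for all features.

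**Figure D1:**
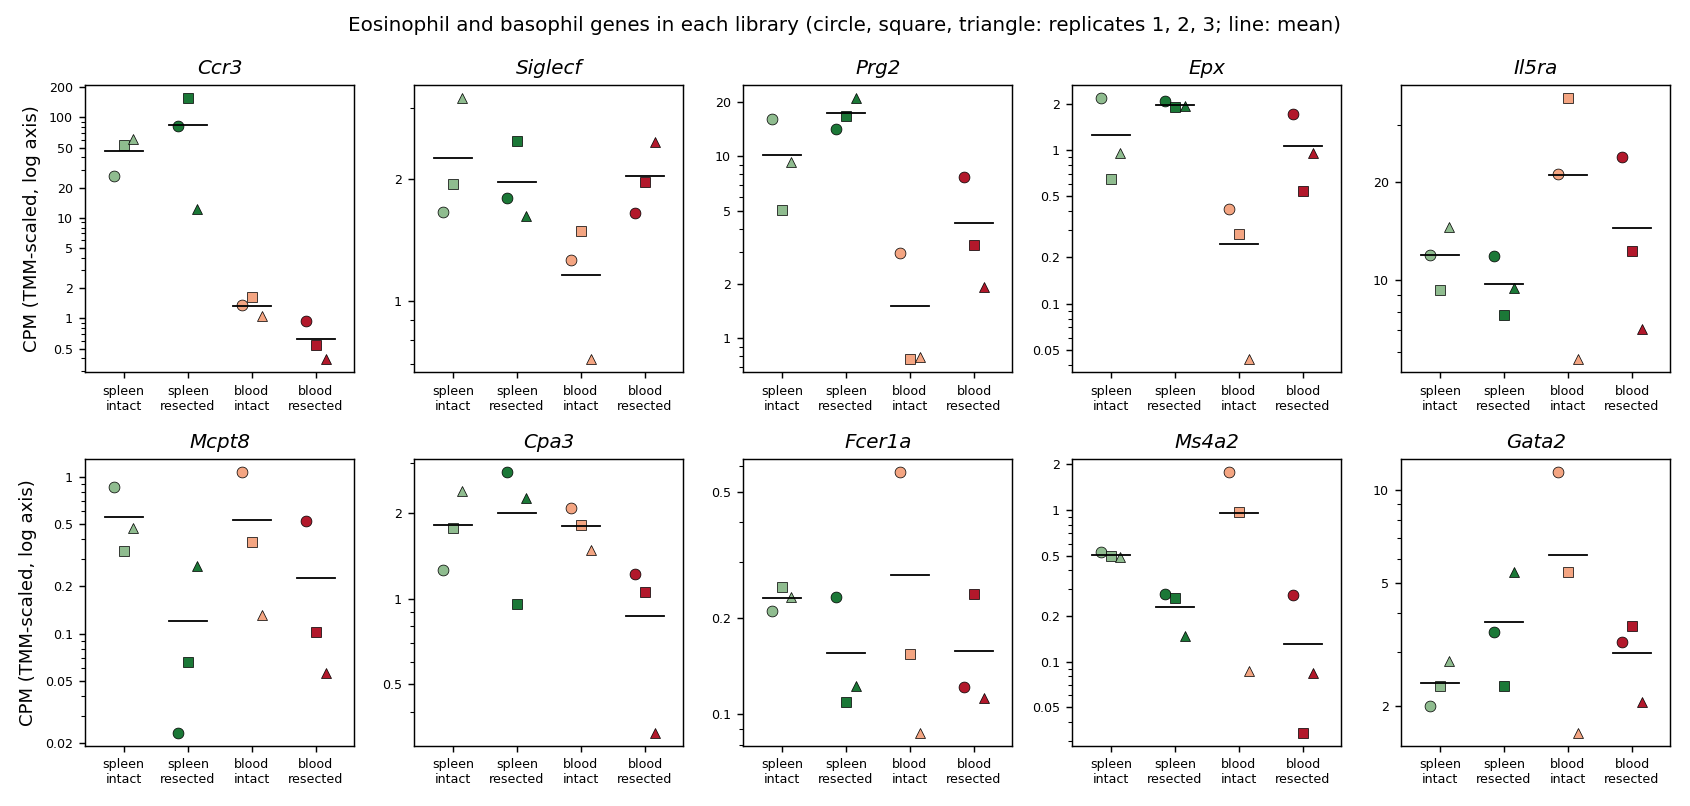
TMM-scaled CPM (log axes) of the 10 genes in the 12 libraries, 3 in each of 4 groups; symbols give the replicate number and lines the group mean. Ccr3 lay at 12.3 to 156 CPM in spleen and at 0.394 to 1.62 CPM in blood, whereas the other genes overlapped in part between tissues or states.

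**Figure D2:**
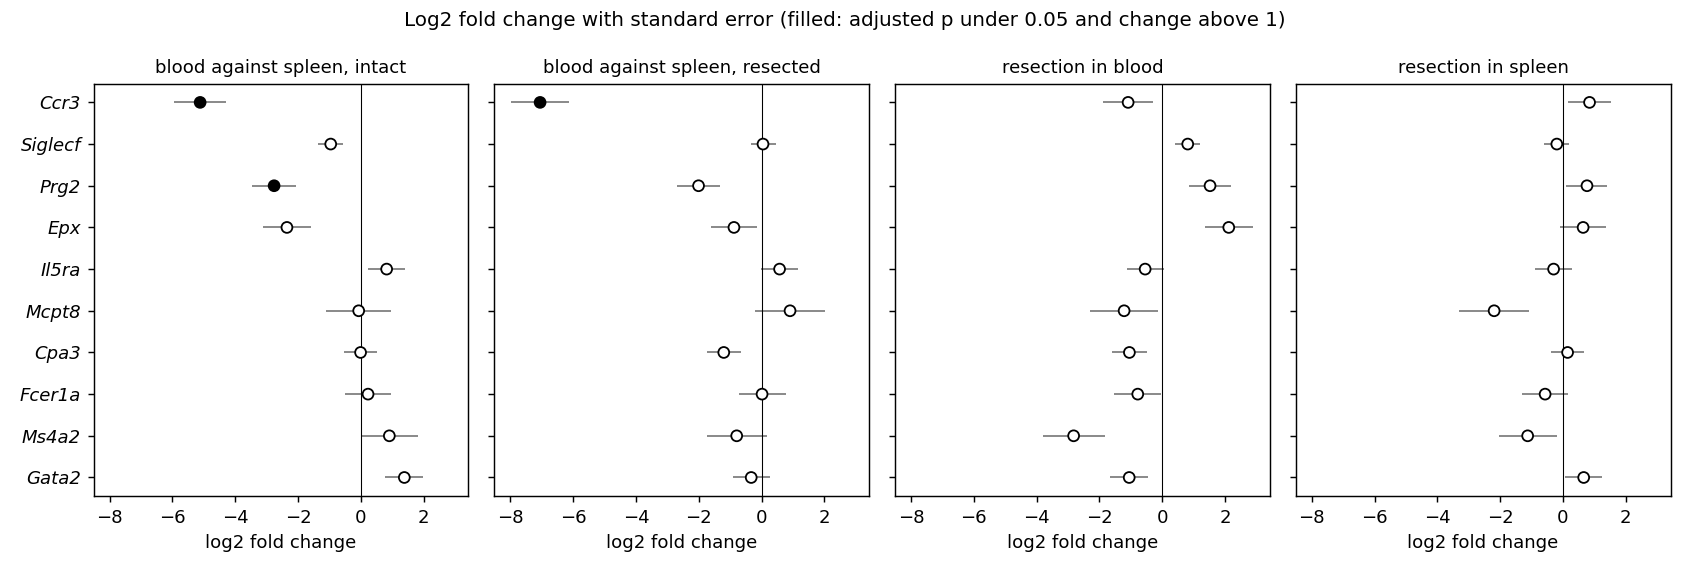
Log2 fold change (points) with standard error (lines) of the 10 genes in 4 comparisons, blood against spleen and resected against intact. Filled points, at Ccr3 in both tissue comparisons and Prg2 in intact animals, mark adjusted p under 0.05 with a change above 1.

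Ccr3, the eotaxin receptor, showed the clearest difference. In intact spleen its level was 26.2, 52.6 and 60.6 CPM in libraries 1, 2 and 3 (46.5 ± 18.0, SD, n = 3). In intact blood it was 1.35, 1.62 and 1.05 CPM (1.34 ± 0.285). Every spleen library was above every blood library, as for Siglecf, Prg2 and Epx, and 34.5% of all features had tissues that did not overlap in intact animals, 20.9% with blood lower. The log2 change of Ccr3 in blood against spleen was -5.12 with a standard error of 0.83 (edgeR, adjusted p = 0.00668).

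After resection Ccr3 stood at 82.4, 156 and 12.3 CPM in spleen (83.5 ± 71.8) and at 0.945, 0.543 and 0.394 CPM in blood (0.627 ± 0.285). The third resected spleen library had the lowest Ccr3 of the 6 spleen libraries, and the second the highest. The log2 difference between blood and spleen was -7.05 (standard error 0.92, edgeR adjusted p = 0.0014). It was called in every alternative run and with each library left out in turn, with values of -7.47 to -6.13 when a library was left out. In resected animals Ccr3, Prg2 and Epx did not overlap between tissues, where 42.4% of all features did not, 25.1% with blood lower.

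Resection itself gave no call for Ccr3. All 3 resected blood libraries were below the 3 intact ones, with a log2 change of -1.09 (standard error 0.80, edgeR adjusted p = 0.363); the blood values rest on 14 to 63 counts per library. In spleen the change was 0.85 (standard error 0.69, adjusted p = 0.526) and the groups overlapped. Without the third resected spleen library it was 1.36, and without the second 0.03. The difference between the blood and spleen effects, -1.93, was not called either (adjusted p = 0.37), and 0.283% of all features were. None of the 10 genes was called for this difference, nor had any an unadjusted p under 0.05, and DESeq2 called 0 as well, with 5.78% of all features called.

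Given per kilobase of exon, Ccr3 was the highest of the 10 genes in spleen, at 14.2 ± 5.5 CPM per kb in intact and 25.5 ± 21.9 in resected animals. Prg2 followed at 12.1 ± 6.62 and 20.6 ± 4.07, and the pair did not differ beyond their spread. Il5ra came next with 3.33 ± 0.731 in intact spleen, below the spread of both. In blood Ccr3 ranked 7 of 10 in intact animals (0.409 ± 0.0871 CPM per kb) and 8 of 10 after resection (0.192 ± 0.0872). There Il5ra (5.88 ± 4.27) led in intact animals and Prg2 (5.13 ± 3.62) in resected ones. In intact blood each gene overlapped the next one in this order within 1 SD. In resected blood this held for all neighbours but Il5ra (4.03 ± 2.41) and Gata2 (0.807 ± 0.223), which stood next to each other.

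None of the 5 features that followed Ccr3 most closely was on the eosinophil, basophil or mast cell lists. Over the 12 libraries the highest Pearson r of log2 CPM with Ccr3, among 15679 features with a symbol, belonged to the adhesion molecule Cadm1 (0.988), Cmbl (0.987), Adcy8 (0.986), Gm32718 (0.985) and the peptide transporter Slc15a2 (0.984). Prg2 came at rank 1852 with 0.718, Epx at 3898 with 0.524, Cpa3 at 4701 with 0.448 and Siglecf at 4970 with 0.423. These values describe libraries of 2 tissues that are far apart, so much of each r lies in the tissue difference.

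Within spleen, where this difference is absent, Cadm1 was at 31.9, 40.4 and 55.1 CPM in intact and 48.0, 90.3 and 12.2 CPM in resected libraries. It was lowest in the third resected library and highest in the second, as Ccr3 was. Slc15a2 and Axl had the same order of the 6 spleen libraries as Ccr3. Cadm1 and Slc15a2 were picked for their likeness to Ccr3 over libraries that include these 6. Axl was picked after the values were seen. The library order was not looked up for Cmbl, Adcy8 and Gm32718, so the shared orders are a description and no test. The count ratio of Ccr3 to Prg2 in spleen was 0.586 to 10.3, and that of Ccr3 to Siglecf 7.56 to 62.6.

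Axl and Itgad belong to a list of 8 red pulp macrophage genes (Spic, Vcam1, Hmox1, Slc40a1, Itgad, Axl, C6 and Mertk) that was drawn up after the values were seen and is given as a description. Red pulp macrophages clear aged red cells in the spleen. The summed level of the list was 1312 to 2125 CPM in intact spleen, 2347 to 5024 in resected spleen, 65.3 to 113 in intact blood and 669 to 981 in resected blood. Spic, the factor that defines these cells, was at 31.3 to 126 CPM in spleen and 0.327 to 6.41 CPM in blood. Itgad was at 136 to 725 CPM in spleen and 0.141 to 0.539 CPM in blood, where its 6 libraries fell in the order of those of Ccr3. In spleen the order differed, with Itgad lowest in intact library 1 and Ccr3 lowest in resected library 3. Of the 8 genes, the library order was looked up for Axl and Itgad only. In that library the sum was 2347 CPM, above all 3 intact spleen libraries. The count ratio of Ccr3 to Itgad was 0.0671 to 0.258 in spleen and 2.58 to 3.88 in blood. The sum was higher in resected than in intact blood, whereas Ccr3 was lower there. The part of these cells in the Ccr3 values was not tested.

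**Figure D3:**
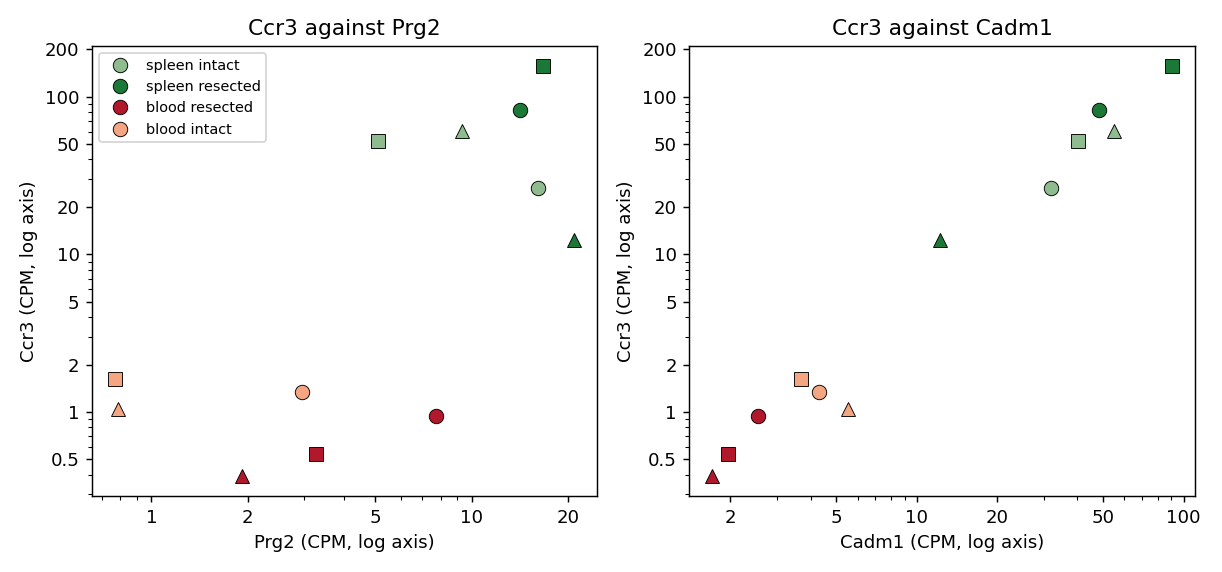
Ccr3 against Prg2 and Ccr3 against Cadm1, in CPM on log axes, 1 point per library with colours for the 4 groups and symbols for replicate numbers. Cadm1 was picked as the feature most like Ccr3 over these libraries, so its rising line follows from the choice; with Prg2, Ccr3 of 12.3 to 156 CPM in spleen went with 5.09 to 20.9 CPM.

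Prg2, the gene of major basic protein, was the second gene called. It was at 16.1, 5.09 and 9.36 CPM in intact spleen (10.2 ± 5.54) and at 2.94, 0.770 and 0.786 CPM in intact blood (1.5 ± 1.25). The tissues did not overlap, and the log2 change in blood against spleen was -2.76 (standard error 0.70, edgeR adjusted p = 0.0374). Over the 12 fits with 1 library left out, the change was -3.66 to -2.16 and the adjusted p 0.0287 to 0.153. The call was lost in 9 of the 12. The libraries left out in these 9 were the 6 of spleen, resected blood library 2 and intact blood libraries 2 and 3.

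After resection Prg2 was at 14.2, 16.8 and 20.9 CPM in spleen (17.3 ± 3.41) and 7.71, 3.26 and 1.91 CPM in blood (4.29 ± 3.04). Blood was again below spleen in each library, with a log2 difference of -2.01 that did not pass the test (standard error 0.68, edgeR adjusted p = 0.0637). DESeq2 called it (-1.90, adjusted p = 0.0197). The change with resection was 1.52 in blood (standard error 0.67, adjusted p = 0.134) and 0.76 in spleen (0.65, adjusted p = 0.553), and the groups overlapped in both tissues.

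Epx, the gene of eosinophil peroxidase, had the same order of tissues at a lower level. It was at 2.19, 0.646 and 0.957 CPM in intact spleen and 0.412, 0.282 and 0.0437 CPM in intact blood, the last from 2 counts. Resected spleen held 2.08, 1.90 and 1.94 CPM, and resected blood 1.71, 0.543 and 0.956 CPM. All 3 resected blood libraries were above the 3 intact ones. The log2 change with resection in blood was 2.12 (standard error 0.76, edgeR adjusted p = 0.0747), and DESeq2 called it (2.14, adjusted p = 0.0204). Blood against spleen it was -2.36 in intact animals (standard error 0.77, edgeR adjusted p = 0.0851), and DESeq2 called it (-2.29, adjusted p = 0.0191).

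Prg2 and Epx kept a narrow ratio in spleen. The count ratio of Prg2 to Epx was 6.82 to 10.8 over the 6 spleen libraries and 2 to 18 in blood, where Epx had 2 to 56 counts. Over the 12 libraries Epx was at rank 15 of the features most like Prg2 (Pearson r = 0.889). The 5 features nearest to Prg2 were the neutrophil granule gene Camp (0.946), Gm16350 (0.933), Map7d3 (0.920), Gm52546 (0.917) and Gm51802 (0.910). Camp was at 24.8 to 48.4 CPM in intact spleen, 55.2 to 105 in resected spleen, 2.75 to 6.82 in intact blood and 16.1 to 35.1 in resected blood. Camp was called higher with resection in blood (log2 2.54, edgeR adjusted p = 0.00551), as were all 8 neutrophil genes listed, and the part of neutrophil-lineage RNA in the Prg2 values was not tested.

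Siglecf, the gene of the lectin Siglec-F, was not called in any comparison. It was at 1.66, 1.94 and 3.17 CPM in intact spleen, 1.80, 2.49 and 1.62 in resected spleen, 1.26, 1.49 and 0.720 in intact blood and 1.65, 1.97 and 2.47 in resected blood. All 3 resected blood libraries were above the intact ones. Of all features, 38.4% had blood groups that did not overlap, 19.4% with resected higher and 19% with resected lower, and of the 10 genes 4 did: Siglecf and Epx were higher, Ccr3 and Cpa3 lower. The log2 change of Siglecf in blood was 0.81 (standard error 0.40, edgeR adjusted p = 0.176), and in spleen -0.20 (0.40, adjusted p = 0.83). Blood against spleen it was -0.96 in intact animals (0.40, adjusted p = 0.166), where the tissues did not overlap, and 0.04 in resected animals (0.40, adjusted p = 0.958). Among 6 alveolar-type macrophage genes, cells that also carry Siglec-F, 2 of 4 tested (Chil3 and Car4) were called higher with resection in blood. Marco (log2 3.63, edgeR adjusted p = 0.0915) and Pparg (-1.25, adjusted p = 0.101) were not. Blood against spleen of resected animals, Car4 was called higher (6.59, adjusted p = 0.035). Marco and Pparg were called lower there (-4.54 and -3.90, adjusted p = 0.0416 and 0.00192). All 8 neutrophil genes listed were also called higher with resection in blood. The part of alveolar-type macrophages in the Siglecf values, and of neutrophil-lineage RNA in the Chil3 values, was not tested.

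Other eosinophil genes differed among themselves. Of 6 listed and tested, 2 (Alox15 and Rnase2a) were called higher with resection in blood and 0 lower, and 0 were called in spleen. Their median log2 change in blood was 1.31, against -0.10 for all features, and in spleen -0.77, against 0.05. The eosinophil granule gene Prg3 was called lower in blood than in spleen of intact animals (log2 -2.83, edgeR adjusted p = 0.049), on 1 to 4 counts per intact blood library. The ribonuclease Ear2 was called lower in blood than in spleen after resection (-1.57, adjusted p = 0.0453), and Ear1 and Ear6 were not called in any of the 4 comparisons. Alox15 and Rnase2a were called higher in blood than in spleen of intact (log2 5.09 and 4.87, adjusted p = 0.00264 and 0.0232) and of resected animals (9.90 and 4.49, adjusted p = 0.000182 and 0.0122). Alox15, a lipoxygenase, was at 2.5 to 10.1 CPM in intact spleen, 103 to 331 in intact blood and 2040 to 2947 in resected blood (log2 change with resection in blood 3.75, edgeR adjusted p = 0.00356). Gata6 and Prg4, genes of large peritoneal macrophages that were looked up after the values were seen, moved with it: Gata6 was at 0 to 0.163 CPM in spleen, 2.85 to 5.86 in intact blood and 17.7 to 23.7 in resected blood. The summed level of 5 such genes (Gata6, Timd4, Prg4, Icam2 and Selp) was 28.5 to 50.4 CPM in spleen, 221 to 665 in intact blood and 2009 to 2160 in resected blood. A list of 5 platelet genes had the same order, at 8.12 to 17.3 CPM in intact spleen and 10.7 to 29.0 in resected spleen. It was at 77.4 to 282 CPM in intact blood and 791 to 880 in resected blood. The part of peritoneal macrophages in the Alox15 values, and of platelets in the summed level, was not tested.

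Among the intact spleen libraries, the first had the highest Prg2, Epx, Prg3, Ear1 and Ear6 and the lowest Ccr3 and Siglecf. Ear1 was at 3.17, 0.480 and 0.893 CPM and Ear6 at 2.42, 0.459 and 0.702 CPM in libraries 1, 2 and 3. Ear2 was lowest in library 1, at 16.1, 16.5 and 23.1 CPM. The summed level of the 6 other eosinophil genes, most of it Ear2, was highest in library 3 (26.7, 20.3 and 35.3 CPM), as was Il5ra.

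**Figure D4:**
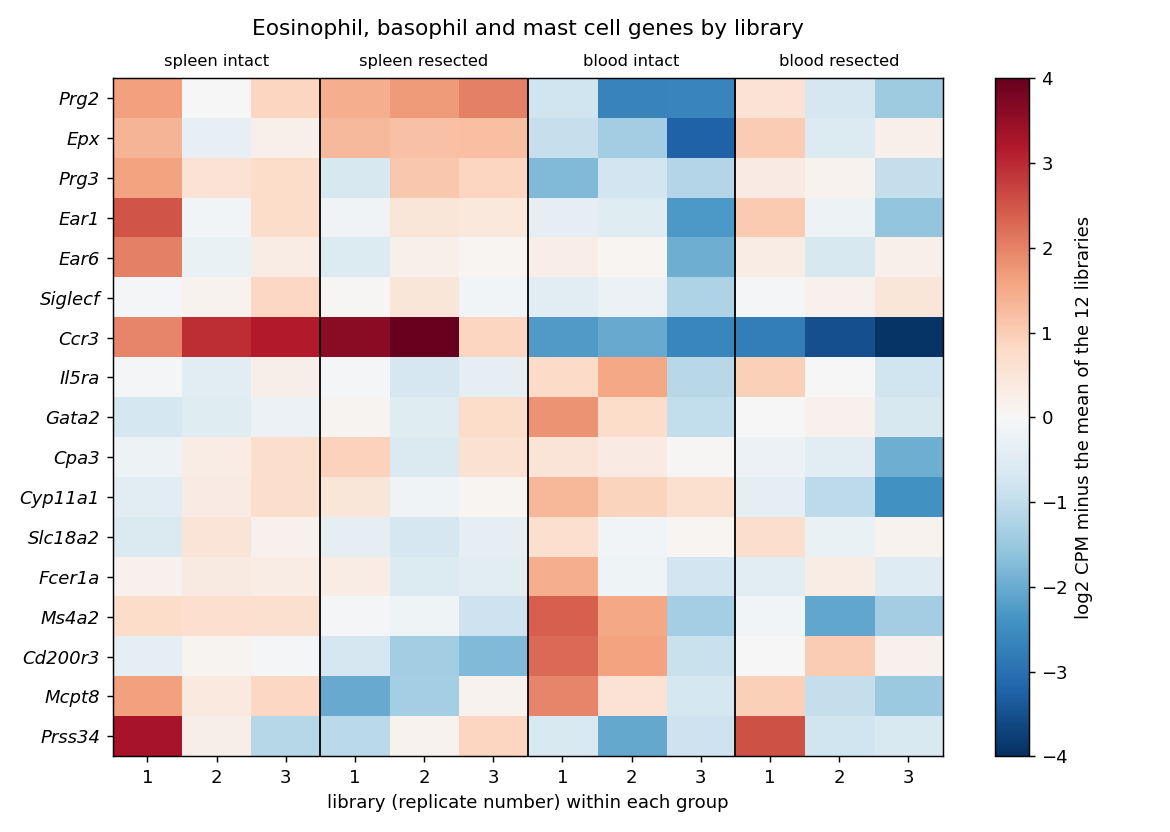
Log2 CPM (prior count of 2) of 17 eosinophil, basophil and mast cell genes in the 12 libraries, each minus its mean over the libraries. Red is above and blue below the mean, and the colours saturate at 4. The 17 were picked from the lists. Among the genes not shown are Alox15, Rnase2a, Ear2, Hdc, Itga2 and the 8 genes of the mast cell list. Of these, Alox15 and Rnase2a (both states) and Itga2 (resected) were called higher in blood than in spleen. Hpgds and Kit (both states), Hdc (intact), Ear2 and Mcpt4 (resected) were called lower. Hdc was also called higher with resection in blood. Ccr3 separates the tissues, and Prg2 and Epx do so less. Ms4a2 and Cd200r3 are highest in the first 2 intact blood libraries, and Gata2 in the first.

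Il5ra, the interleukin-5 receptor alpha chain, did not follow the granule genes. It was at 11.9, 9.32 and 14.5 CPM in intact spleen and 11.8, 7.83 and 9.43 in resected spleen. In blood it was at 21.2, 36.2 and 5.72 CPM in intact and 23.9, 12.3 and 7.06 CPM in resected animals. The groups overlapped in every comparison. The log2 change was 0.82 in blood against spleen of intact animals (standard error 0.59, edgeR adjusted p = 0.43) and -0.55 with resection in blood (0.59, adjusted p = 0.548).

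The summed level of 4 B-1 cell genes (Cd5, Bhlhe41, Zbtb32 and Spn), lymphocytes that also carry this receptor, was 234 to 460 CPM in intact blood, 147 to 233 in resected blood, 112 to 144 in intact spleen and 131 to 208 in resected spleen. This list too was drawn up after the values were seen. Cd5 and Spn are also T-cell genes. A list of 5 T-cell genes summed to 485 to 1928 CPM in intact blood, 89.1 to 183 in resected blood, 114 to 229 in intact spleen and 50.2 to 76.7 in resected spleen. Of its 4 genes tested, 4 were called lower with resection in blood and 4 higher in intact blood than in intact spleen. The general B-cell gene Cd79a gave -0.14 and -1.65 in these comparisons (edgeR adjusted p = 0.883 and 0.087). The part of B-1, other B and T cells in the Il5ra values was not tested.

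The interleukin-5 family shares the signalling chain encoded by Csf2rb. Of 7 other genes of its ligands and receptor chains 5 were tested, and all 5 (Csf2, Csf2ra, Csf2rb, Csf2rb2 and Il3ra) were called higher with resection in blood and 0 in spleen. The common chain Csf2rb was at 162, 162 and 60.3 CPM in intact and 362, 349 and 816 CPM in resected blood (log2 change 1.99, standard error 0.56, edgeR adjusted p = 0.0308). These chains also serve monocytes and neutrophils.

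The basophil and mast cell genes had low counts. Ms4a2, the beta chain of the IgE receptor, had 1 to 65 counts per library and Fcer1a, the alpha chain, 4 to 21. Mcpt8 had 1 to 41 and Cpa3 12 to 120. The beta chain was at 0.526, 0.501 and 0.489 CPM in intact spleen and 0.280, 0.262 and 0.147 in resected spleen. In blood it was at 1.79, 0.976 and 0.0873 CPM in intact and 0.274, 0.0339 and 0.0844 CPM in resected animals. The spleen groups did not overlap, and the first 2 intact blood libraries were above all others.

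Ms4a2 gave a log2 change of -2.82 with resection in blood (standard error 0.99, edgeR adjusted p = 0.068). DESeq2 called it (-2.86, adjusted p = 0.0227), and edgeR did so without the third intact blood library (-3.38, adjusted p = 0.0136). In spleen it was -1.12 (0.93, adjusted p = 0.534). Mcpt8, which in mice is used as a basophil gene, also had lower values in each resected than in each intact spleen library. It was at 0.862, 0.334 and 0.468 CPM in intact and 0.0233, 0.0654 and 0.270 CPM in resected spleen, the first of the resected libraries with 1 count (log2 change -2.19, standard error 1.11, edgeR adjusted p = 0.294). These were the 2 of 10 genes whose spleen groups did not overlap, against 35.1% of all features, 17.7% with resected lower.

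Mcpt8 in blood was at 1.07, 0.385 and 0.131 CPM in intact and 0.518, 0.102 and 0.0562 CPM in resected animals, and the groups overlapped. The features most like Mcpt8 over the 12 libraries were Wnt16 (Pearson r = 0.868), the granzyme Gzmk (0.855), Vegfc (0.847), Slc25a32 (0.841) and the sphingosine phosphate receptor S1pr5 (0.834), and Ms4a2 was at rank 97 with 0.697. Fcer1a was at 0.210, 0.250 and 0.234 CPM in intact spleen, 0.233, 0.109 and 0.123 in resected spleen, 0.577, 0.154 and 0.0873 in intact blood, and 0.122, 0.238 and 0.112 in resected blood. At this depth no difference in Fcer1a was detectable, with adjusted p of 0.488 to 0.995 in the 4 comparisons (edgeR).

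Cpa3, the mast cell and basophil carboxypeptidase, was at 1.26, 1.77 and 2.40 CPM in intact spleen and 2.80, 0.960 and 2.26 in resected spleen. In blood it was at 2.09, 1.82 and 1.48 CPM in intact and 1.22, 1.05 and 0.337 CPM in resected animals. The blood groups did not overlap, and the log2 change of -1.05 did not pass the test (standard error 0.55, edgeR adjusted p = 0.198).

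Gata2 was at 2.00, 2.31 and 2.79 CPM in intact spleen, 3.48, 2.31 and 5.43 in resected spleen, 11.5, 5.42 and 1.64 in intact blood and 3.23, 3.63 and 2.05 in resected blood. Its highest value was that of intact blood library 1, and its lowest that of intact blood library 3. Resected spleen library 3 (5.43) and intact blood library 2 (5.42) came next to the highest. The log2 change was 1.38 in blood against spleen of intact animals (standard error 0.60, edgeR adjusted p = 0.184) and -1.05 with resection in blood (0.60, adjusted p = 0.234). Without the third intact blood library both passed the test, at 1.94 (adjusted p = 0.0271) and -1.51 (adjusted p = 0.0389).

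The 3 intact blood libraries differed in the same way for Ms4a2, Mcpt8, Fcer1a, Cpa3 and Gata2, each being highest in library 1 and lowest in library 3. So did Cd200r3, a receptor of basophils (1.92, 1.21 and 0.175 CPM in libraries 1, 2 and 3), Itga2 (16.5, 15.5 and 2.95), Cyp11a1 (2.12, 1.54 and 1.29), Hdc (13.3, 11.8 and 3.16) and the interleukin-33 receptor Il1rl1 (15.3, 13.7 and 2.20). Slc18a2 and Prss34 did not have this order, Prss34 with 0 to 3 counts in these libraries. The summed levels of other lists moved in the same order, at 2477, 1879 and 1088 CPM for 8 monocyte genes, 282, 204 and 77.4 CPM for 5 platelet genes and 404361, 277385 and 124034 CPM for 7 erythroid genes, while 5 T-cell genes were highest in library 3 (485, 502 and 1928 CPM). Their part in these values was not tested.

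Of 7 other basophil genes 6 were tested. With resection in blood 1 was called higher (Hdc, the histidine decarboxylase that makes histamine, log2 4.59, edgeR adjusted p = 0.00487) and 1 lower (Cyp11a1, -2.17, adjusted p = 0.0289), and 0 were called in spleen. Hdc was at 3.16 to 13.3 CPM in intact blood and 85.4 to 424 in resected blood, where Ms4a2, Mcpt8, Fcer1a, Cpa3 and Gata2 were not called. Neutrophils and macrophages can also express Hdc. Blood against spleen, Hdc was called lower in intact animals (log2 -3.12, edgeR adjusted p = 0.0341). Itga2 was called higher in resected animals (2.52, adjusted p = 0.0189). Of 8 mast cell genes 6 were tested, and Kit and Tpsab1 were called higher with resection in blood. Hpgds and Kit were called lower in blood than in spleen of intact animals (log2 -3.30 and -2.57, edgeR adjusted p = 0.00459 and 0.00196). In resected animals Hpgds, Kit and Mcpt4 were called lower in blood (-3.98, -1.30 and -2.82, adjusted p = 0.00128, 0.013 and 0.0422). The connective tissue mast cell receptors Mrgprb1 and Mrgprb2 were at 0.233 CPM or less in every library, and the part of mast cells in the Cpa3 values was not tested.

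Gata2 also belongs to blood progenitors. Of 8 progenitor genes, 4 (Elane, Kit, Mpo and Prtn3) were called higher with resection in blood and 1 (Prtn3) in spleen, and 0 lower in either. Cd34, Flt3, Meis1 and Ctsg were not called in blood (edgeR adjusted p = 0.114, 0.362, 0.13 and 0.0788). All 8 neutrophil genes listed were called higher with resection in blood, and the part of neutrophil-lineage RNA in the progenitor genes was not tested. Of 11 GATA and other lineage factors, Id2 and Spi1 were called higher in blood with resection, and Id2 in spleen. Gata1, its cofactor Zfpm1 and Tal1 were called lower in blood than in spleen of resected animals (log2 -3.19, -2.23 and -3.50, edgeR adjusted p = 0.016, 0.00863 and 0.00823), and Gata2 gave -0.33 there (adjusted p = 0.746). Cebpa was called higher there (1.5, edgeR adjusted p = 0.00732). Klf1, a factor of red cell precursors, was called lower in blood than in spleen of intact and of resected animals (-4.37 and -6.65, edgeR adjusted p = 0.0104 and 0.0014), and the part of such precursors in the Gata1, Zfpm1 and Tal1 values was not tested.

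Because GATA factors bind sites with the core GATAA, the promoters of the genes were searched for it on both strands (GATAA or its reverse, TTATC). RefSeq windows of 300 bases, 250 before and 50 after a start, were at hand for 9 of the 10 genes, in the build GRCm38.p6, while the counts were made on GRCm39. The core was present in 6 of the 9, and in 25.4% of 32851 windows of all genes. The 250 bases before the start are shown for the 5 genes with a match in them, because both chains of the IgE receptor and Cpa3 stand among them, beside Il5ra and Ccr3; none overlaps an annotated exon of the 10 genes. The stretches lie at chr19:11623720-11623969 (Ms4a2, minus strand), chr1:173227230-173227479 (Fcer1a, minus), chr3:20242182-20242431 (Cpa3, minus), chr6:106749038-106749287 (Il5ra, minus) and chr9:124021721-124021970 (Ccr3, plus). Each is written 5′ to 3′ along the gene, with the core in capitals.

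Ms4a2 promoter: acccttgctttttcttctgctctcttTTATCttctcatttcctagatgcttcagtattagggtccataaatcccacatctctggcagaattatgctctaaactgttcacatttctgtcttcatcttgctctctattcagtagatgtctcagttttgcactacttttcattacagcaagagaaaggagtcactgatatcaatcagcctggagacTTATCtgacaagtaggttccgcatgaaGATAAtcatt

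Fcer1a promoter: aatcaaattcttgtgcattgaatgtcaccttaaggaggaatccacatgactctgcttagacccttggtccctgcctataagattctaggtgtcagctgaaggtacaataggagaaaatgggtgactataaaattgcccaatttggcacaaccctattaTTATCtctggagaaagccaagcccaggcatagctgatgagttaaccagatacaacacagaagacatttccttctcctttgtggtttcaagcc

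Cpa3 promoter: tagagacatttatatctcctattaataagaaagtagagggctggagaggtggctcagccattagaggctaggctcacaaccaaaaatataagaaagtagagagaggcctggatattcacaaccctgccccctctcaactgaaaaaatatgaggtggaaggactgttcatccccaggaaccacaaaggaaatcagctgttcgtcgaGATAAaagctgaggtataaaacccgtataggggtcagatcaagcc

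Il5ra promoter: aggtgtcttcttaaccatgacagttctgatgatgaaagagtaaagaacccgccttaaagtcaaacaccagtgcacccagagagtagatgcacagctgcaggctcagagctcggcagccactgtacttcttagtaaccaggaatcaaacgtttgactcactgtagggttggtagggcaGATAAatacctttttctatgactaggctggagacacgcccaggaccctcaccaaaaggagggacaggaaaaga

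Ccr3 promoter: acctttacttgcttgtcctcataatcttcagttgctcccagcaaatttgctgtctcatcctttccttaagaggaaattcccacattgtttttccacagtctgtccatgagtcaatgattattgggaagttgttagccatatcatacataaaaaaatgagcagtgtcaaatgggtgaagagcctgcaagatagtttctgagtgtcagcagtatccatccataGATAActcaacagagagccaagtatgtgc

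Ms4a2 had 3 matches and the other genes shown had 1 each. The match of Siglecf was not in the 250 bases before the start, and Epx, Mcpt8 and both Gata2 windows had none. A match is a run of letters and not a measured binding site.

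The relation of Ccr3 to the other 9 genes was computed within each tissue over 6 libraries, 18 relations in all, on log2 CPM. None passed an adjusted p of 0.05 by Pearson or Spearman correlation (exact permutation tests, two-sided, Benjamini-Hochberg). In spleen Ccr3 gave r = -0.26 and rho = -0.20 with Prg2 (exact permutation p = 0.624 and 0.714), r = -0.14 and rho = -0.20 with Epx (p = 0.825 and 0.714) and r = 0.60 and rho = 0.71 with Siglecf (p = 0.222 and 0.136). The adjusted p was 0.49 or more for each of these 3. Without the 2 libraries farthest from the median of the second gene, r was -0.66, -0.23 and 0.79.

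In blood the Ccr3 values, on 14 to 63 counts, went with Cpa3 (r = 0.91, exact permutation p = 0.00417, adjusted p = 0.075; rho = 0.94, p = 0.0167, adjusted p = 0.3). Without the 2 farthest libraries r was 0.96. Both genes were higher in the 3 intact libraries, and no r was computed within a state, which holds 3 libraries. With Prg2, Epx and Siglecf r was -0.28, -0.41 and -0.64 (exact permutation p = 0.561, 0.417 and 0.167; adjusted p = 0.79, 0.75 and 0.571), and rho was -0.49, -0.66 and -0.77 (p = 0.356, 0.175 and 0.103; adjusted p = 0.64, 0.525 and 0.49). Without the 2 farthest libraries r was -0.19, -0.94 and -0.86. The count ratio of Ccr3 to Prg2 in blood was 0.123 to 2.10.

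Of 6 ligands of CCR3, 3 were tested. Ccl11 (eotaxin), read at 0 or 1 count, was not, nor were Ccl8 and Ccl28. Ccl24, an eotaxin made by macrophages, was called higher with resection in blood, from 18.1 to 50.8 CPM in intact to 228 to 248 CPM in resected libraries (log2 2.69, edgeR adjusted p = 0.0155), as was Ccl7 (4.80, adjusted p = 0.00215). None of the 3 was called with resection in spleen.

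Of 6 other chemokine receptor genes listed beside Ccr3, 6 were tested. Of these, Ccr1 (log2 2.28) and Ccrl2 (3.49) were called higher and Cx3cr1 (-2.20) lower with resection in blood (edgeR adjusted p = 0.0118, 0.00307 and 0.0165), and 0 were called in spleen. Ccr1l1 was called lower in blood than in spleen after resection (-3.80, adjusted p = 0.0425), on 0 to 96 counts, and its reads could be shared with its close relative Ccr1. Of 8 genes of IgE receptor signalling, Fcer1g, the gamma chain that is shared with other Fc receptors, was called higher with resection in blood (1.94, edgeR adjusted p = 0.00529). It was at 80.8, 75.2 and 33.8 CPM in intact and 180, 224 and 325 CPM in resected blood, while the alpha and beta chains were below 2 CPM in every library.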

How the data were processed

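The deposited tables hold estimated counts per gene symbol or RefSeq accession, which the authors made from reads of 12 libraries; the submitters' processing notes name STAR and GRCm39, and the counting tool and annotation are not given in the sources used here. The labels describe a DNBSEQ strand-specific mRNA library, the methods an Illumina HiSeq. The 67088 entries were summed by symbol to 52553 features and rounded; 1.75% to 4.33% of counts had no gene name and were left out. All 10 genes had a symbol entry, and 1 had further accession entries with 0 counts.

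Counts were tested with edgeR 4.0.16 (R 4.3.3; TMM, filterByExpr with 10 as minimum count, robust quasi-likelihood, 1 fit of 4 groups; common dispersion 0.312). The filter kept 20135 features and all 10 genes. Calls needed a Benjamini-Hochberg adjusted p under 0.05 and a log2 change above 1. DESeq2 1.42.0 was an alternative, with other filters and scalings, a replicate block, fits of 2 groups and each library left out. The edgeR script was tested on simulated data. Levels per kilobase used GENCODE M21 exon lengths.

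The genes and lists were chosen with earlier results of these data known. Named were the 10 genes, at most 4 genes per marker or pathway list with the smallest p-values, genes whose level is set beside one of the 10, and the 5 features most like Ccr3, Prg2 and Mcpt8. Further list genes, such as all called interleukin-5 family genes and lineage factors and the other eosinophil and basophil genes, were named after their values were seen. The red pulp, peritoneal and B-1 lists were added after values were seen.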

Additional observations from a re-analysis of the deposited data

How the results depend on the processing

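Ccr3 was called lower in blood than in spleen in every alternative run, in intact and in resected animals, and the counts of calls stayed at 0 for resection in spleen and for the difference of the effects. With resection in blood DESeq2 called 2 genes (Epx and Ms4a2) where edgeR called 0, and leaving out 1 library gave 0 to 2 calls (Prg2 without intact library 1, Ms4a2 and Gata2 without intact library 3). Blood against spleen in intact animals, the 2 calls became 1 (Ccr3) without the filter on low counts and in a fit of the 2 groups, 3 with DESeq2 (adding Epx), and 1 to 2 when a library was left out, with Gata2 in place of Prg2 without intact blood library 3. In resected animals the 1 call became 2 (adding Prg2) with DESeq2, with at least 10 counts in every library (which kept 6 of the 10 genes), in a fit of the 2 groups and without intact blood library 1 (1 to 2 over the libraries left out). The cause of these changes was not tested.

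Same-numbered libraries of different groups deviated together with correlations of -0.0460 to 0.189, so the numbers were not taken as pairing. With the replicate block, resected blood against spleen gave 2 calls (adding Prg2, -2.33, adjusted p = 0.0246), other counts were unchanged, and Fcer1a turned to -0.062 (intact tissues) and 0.17 (difference of effects).

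Uncalled values near 0 changed sign. In intact blood against spleen, Mcpt8 and Cpa3 were 0.023 and 0.067 with DESeq2, 0.023 and 0.068 with RLE scaling, 0.026 and 0.060 without the filter, and 0.044 and 0.104 without haemoglobin genes. With a library left out, this comparison gave -1.04 to 0.50 for Mcpt8, -0.11 to 0.34 for Cpa3 and -0.88 to 0.76 for Fcer1a. In resected blood against spleen, the ranges were -0.31 to 0.52 (Fcer1a), -0.48 to 0.14 (Gata2), -0.48 to 2.35 (Mcpt8) and -0.016 to 0.35 (Siglecf). With resection they were -1.21 to 0.41 (Fcer1a) and -1.12 to 0.091 (Il5ra) in blood, and -0.17 to 0.48 (Cpa3) and -0.40 to 0.12 (Siglecf) in spleen. The difference of effects ranged over -0.64 to 0.99 (Fcer1a), -0.51 to 2.31 (Mcpt8) and -0.81 to 0.40 (Il5ra). Without the 2 farthest libraries, r of Ccr3 in spleen changed sign with Il5ra (0.38), Mcpt8 (0.20), Cpa3 (0.23), Ms4a2 (-0.88) and Gata2 (0.41). Of 965 alternatives for log2 changes, 896 kept direction and side of the threshold. Depth limits Fcer1a, Ms4a2 and Mcpt8, which had as few as 1 to 4 counts in some libraries.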
